A study of Homo sapiens with 3 samples.

Results

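Scarce late-annotated microRNAs (miRNAs) were examined in the human melanoma cell line SK-MEL-2, with and without exposure to a nonthermal plasma jet. A miRNA was included when the number in its name was 1000 or more and its mean raw count over the 3 libraries was at least 5 and below 20. Left out by name were 7 entries (miR-4485-3p, miR-3648, miR-3687, miR-1260a, miR-1260b, miR-4454 and miR-6765-3p). Of these only miR-4485-3p, with 0, 1 and 17 counts, had a mean in that range. The rule found 51 of the 2588 miRNAs listed. The control group was untreated cells, and the other groups were cells held under the jet (gas ionised in part, without much heat) for 3 min or for 5 min. All groups were the same line, collected on Day 2 and sequenced as 1 small RNA library each from Trizol-extracted total RNA. No difference between groups could therefore be tested, and every interval covers counting error only, not the spread between cultures. PCR copies were not marked by molecular identifiers, so reads are not independent molecules.

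MiRNAs are short RNAs cut from hairpin precursors by Drosha and Dicer, and a few skip Drosha because splicing of a short intron frees the hairpin. Once loaded into an Argonaute protein, a miRNA pairs through its seed, the bases near its 5′ end, with messenger RNAs and lowers their output. Numbers were assigned in order of entry into the miRNA registry, so high numbers mostly mark miRNAs found by deep sequencing, many of them scarce and some lying inside exons, small nucleolar RNAs or other transcripts.

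The members were chosen by their raw counts, so their low level is not a finding. Of the 1641 listed miRNAs numbered 1000 or more (without the entries left out by name), 33 had a mean of at least 20 counts, 405 had counts but a mean below 5, and 1152 had no count in any library. Just above the lower bound were miR-3182 (8, 3 and 4 counts in the control, 3 min and 5 min libraries), miR-4532 (5, 1 and 9) and miR-3195 (0, 3 and 13). Just below it lay miR-6825-3p (2, 2 and 10), miR-4759 (4, 1 and 9) and miR-6509-5p (7, 2 and 4). At the upper bound miR-3907 (29, 18 and 11), miR-4662a-5p (8, 13 and 34) and miR-6073 (23, 13 and 17) were the last inside. The first outside were miR-6514-3p (25, 22 and 13), miR-1827 (25, 23 and 16) and miR-4291 (35, 19 and 11).
Some members reached the lower bound only through 1 library, the mean of the other libraries being below 5, and so had to be high there. For the 5 min library these were 7, miR-3195, miR-4532, miR-6516-5p, miR-8066, miR-2681-3p, miR-6817-3p and miR-6874-3p. For the control they were 3, miR-3182, miR-4448 and miR-4500, and for the 3 min library 5, miR-4500, miR-4772-5p, miR-8066, miR-8485 and miR-6876-3p. Their differences are given as descriptions.

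Mature sequences were found for 42 of the 51 members in RefSeq (GRCh38.p14). The 9 without an entry were miR-1273g-3p, miR-3195, miR-4508, miR-4532, miR-4662a-5p, miR-4662b, miR-6864-5p, miR-6876-3p and miR-8485. The following are members named for their differences between libraries, 5′ to 3′, with the seed (bases 2 to 8) in capitals. The first 5 are, of the members with a sequence, those whose counting interval of the 5 min to control ratio lay farthest above 1. MiR-4448 is the one whose interval lay below 1. MiR-8066 and miR-4448 met the abundance rule only through a library where they were high, so the choice favoured their differences.
miR-5187-5p: uGGGAUGAgggauugaagugga
miR-6807-3p: cACUGCAUuccugcuuggcccag
miR-1244: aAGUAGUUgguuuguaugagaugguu
miR-6724-5p: cUGGGCCCgcggcgggcgugggg
miR-8066: cAAUGUGAucuuuuggaugua
miR-4448: gGCUCCUUggucuaggggua

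The members' sequences were searched for in small RNA genes other than miRNAs. Nuclear transfer RNA genes were not among these, so matches to them, also of miR-4448, were not examined. A stretch of at least 14 letters occurred in a searched gene for 4 members. They are shown because reads of that RNA and of the miRNA cannot be told apart over this stretch. Capitals mark the shared stretch. For miR-1248 it is the whole miRNA and the gene is SNORA81, a small nucleolar RNA. For miR-6516-5p it is again the whole miRNA, inside SCARNA16, a small Cajal body RNA. The stretches of miR-4301 (17 letters) and miR-6073 (15 letters) occur in Y RNA entries.
miR-1248: ACCUUCUUGUAUAAGCACUGUGCUAAA
miR-6516-5p: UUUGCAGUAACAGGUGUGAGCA
miR-4301: UCCCACUACUUCACUUGuga
miR-6073: GGUAGUGAGUUAUCAgcuac

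Such stretches were found in 9.52% of the members with a sequence, 1.67% of the earlier-named miRNAs of the same abundance and 3.59% of all listed miRNAs with a sequence. Another pair of members matched abundant miRNAs from the first base on, again with the shared letters in capitals. MiR-4306 shared 16 of its 17 letters with miR-185-5p, and miR-4500 shared 14 of 17 with let-7i-5p, a member of the let-7 family of differentiation-associated miRNAs.
miR-4306: UGGAGAGAAAGGCAGUa
miR-185-5p: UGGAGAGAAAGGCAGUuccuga
miR-4500: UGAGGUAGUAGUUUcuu
let-7i-5p: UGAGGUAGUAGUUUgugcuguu

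The libraries held 1045482 (control), 966943 (3 min) and 615645 (5 min) counts. Counts were divided by library totals adjusted with TMM factors (edgeR's trimmed mean of log ratios), which lay between 0.991 and 1.008, and given as scaled CPM, that is per 1e6 counts. A single count was worth 0.956, 1.03 and 1.62 CPM before the adjustment. Of a list of 9 miRNAs of melanocytic cells, 5 had counts, summing to 31920, 39468 and 25062. MiR-221-3p gave 23127, 29736 and 20382 of these, and miR-211-5p 128, 97 and 65. Without counts were miR-506-3p, miR-508-3p, miR-509-3p and miR-514a-3p. Lists for other cells gave 10, 17 and 10 counts for blood, and 4303, 4955 and 3560 for fibroblasts. The neural list (1 of 2 with counts) gave 16885, 14199 and 11140. Liver and endothelial lists of 1 miRNA each gave 114, 117 and 76, and 313, 316 and 221. Scaled to library size, the melanocytic sum after 5 min was 1.32 times the control (1.30 to 1.35). The fibroblast sum was 1.39 times (1.33 to 1.46) and the neural sum 1.11 times (1.09 to 1.14). The 3 lists with the highest 5 min to control ratios were the following. Epithelial miRNAs (5 of 6 with counts, miR-205-5p at 0) summed to 15, 24 and 40, muscle miRNAs (2 of 5 with counts) to 1, 3 and 15, and 11 entries that resemble other RNAs (9 with counts) to 685, 663 and 1401. The last sum was 3.45 times the control at 5 min (95% interval 3.14 to 3.78) and 1.06 times at 3 min (0.948 to 1.18). Their part in the members' values was not tested. In such bulk samples, fewer cells of a type and less RNA per cell cannot be told apart.

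The first comparison asked how the miRNAs differed between untreated cells and cells exposed for 5 min. Control counts summed over the 51 members came to 440 (exact Poisson 95% interval 399.8 to 483.1). The 3 min library had 445 (404.6 to 488.3), and the 5 min library, the smallest of the 3, had 555 (509.8 to 603.2). Scaled to library size these were 421, 464 and 894 CPM. The 5 min sum was thus 2.13 times the control (exact binomial 95% interval 1.87 to 2.41). The members held 0.0421%, 0.0460% and 0.0901% of the 3 libraries, so they remained a very small share of the miRNA reads throughout.

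The 66 miRNAs of the same abundance with lower numbers or let-7 names summed to 807, 746 and 604 counts. Their 5 min to control ratio was 1.26 (1.13 to 1.40), and its interval did not overlap that of the members. Neighbouring abundance ranges showed the same order. Below a mean of 5 counts, 405 late-numbered miRNAs gave a ratio of 2.41 (2.06 to 2.81) and 211 others 1.73 (1.44 to 2.08). Between 20 and 100 counts, 21 late-numbered miRNAs gave 2.17 (1.97 to 2.40) and 75 others 1.11 (1.06 to 1.16). The 21 do not include miR-1260a, miR-1260b, miR-4454 and miR-6765-3p, left out by name, whose means also lay in this range. From control to 5 min their counts went from 76 to 17, 67 to 23, 99 to 38 and 64 to 39. With them the ratio of 2.17 would be lower, and no entry was left out of the 75. At 100 counts and above the ratios were 1.01 (0.985 to 1.03) for 12 late-numbered miRNAs and 0.989 (0.986 to 0.993) for 119 others. When miRNAs were instead chosen by 5 to under 20 counts in the 3 min library alone, which this ratio does not use, 45 late-numbered miRNAs (39 of them members) gave 2.14 (1.87 to 2.43) and 63 others 1.38 (1.23 to 1.54). The higher sums of late-numbered miRNAs were thus found below 100 counts. At 100 counts and above, the sum over 12 miRNAs does not show how single ones differed. The intervals do not say how much of the difference in sums a repeat culture would show.

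**Figure D1:**
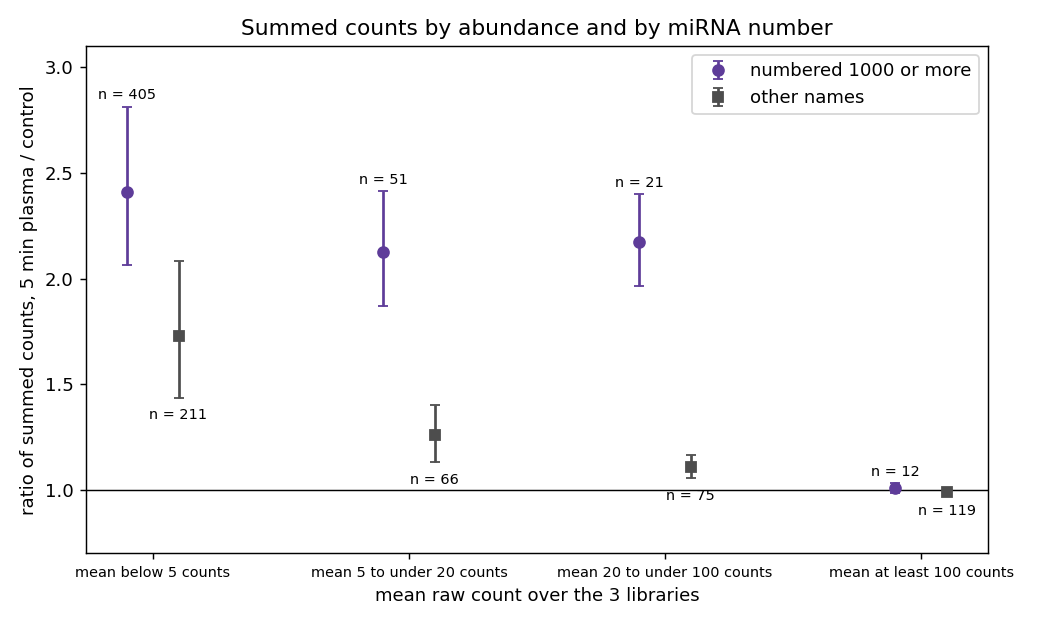
Ratio of summed scaled counts, 5 min plasma to control, by mean raw count (groups on the x axis), for miRNAs numbered 1000 or more (circles) and other names (squares); bars are exact 95% counting intervals, n is the number of miRNAs, and each group is 1 library. The 51 members are the circle at a mean of 5 to under 20, at 2.13, above the square at 1.26. The circles do not include the entries left out by name.

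Among single members, 25 of 51 exceeded the control 2-fold or more after 5 min, and 4 fell short of it by as much. All 349 miRNAs whose mean count reached 5, members included, gave the background, with 18.3% higher and 6.59% lower by this rule. The members' share of higher values, 49.0%, was above that background, and their share of lower values, 7.84%, was near it. The 7 members that met the abundance rule only through the 5 min library were left in, which favours higher values. Of these, all but miR-6516-5p were at least 2-fold higher, and the share without them was not computed. Of the 66 other names of the same abundance, 16 were at least 2-fold higher and 11 lower. The median log2 ratio was 0.98 over the members, 0.08 over the 66 and 0.11 over the 349. Size factors from DESeq2 over all listed miRNAs moved the median of the 349 to -0.10 and that of the 66 to -0.13, and left the members at 0.77 with 24 higher and 6 lower.

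**Figure D2:**
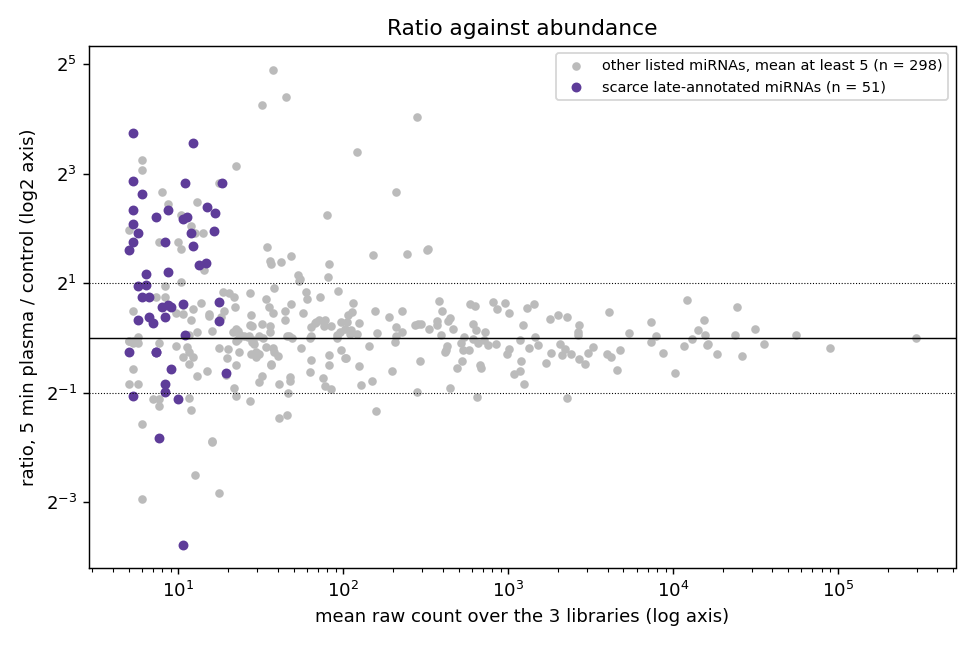
Ratio of scaled counts, 5 min plasma to control (y axis, log2), against the mean raw count over the 3 libraries (x axis, log), for the 51 members (purple) and the rest of the 349 miRNAs whose mean reached 5 (grey); dotted lines mark 2-fold, and a miRNA at 0 in 1 library is drawn at its bound. Most members lie above the line at 1, with a median log2 ratio of 0.98.

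For 20 members the counting interval of this ratio lay above 1, and for 1 member below it. Among the 20, miR-3195, miR-8066, miR-2681-3p, miR-6817-3p and miR-6874-3p met the abundance rule only through the 5 min library. MiR-4448, the one below, met it only through the control. With TMM over all listed miRNAs 19 lay above 1, miR-6874-3p no longer among them (lower limit 0.941), and with DESeq2 size factors over all listed miRNAs 18, without miR-6874-3p (0.915) and miR-1273g-3p (0.997). The corresponding background was 28.9% above and 19.2% below, a figure that includes abundant miRNAs with narrow intervals. Among the 66 of like abundance the numbers were 13 and 6.

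MiR-4662a-5p had the highest count of any member in the 5 min library, with 8, 13 and 34 counts. This was 7.16 times the control (3.25 to 17.9). Its near namesake miR-4662b had 10, 16 and 23 counts, a ratio of 3.88 (1.77 to 9.12). Both were lowest in the control and highest after 5 min.

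MiR-4508 was counted 3, 13 and 21 times, 11.8 times the control after 5 min (3.52 to 61.8). MiR-3195 was the one member with a library at 0, with 0, 3 and 13 counts. Set against the floor of 3 counts that a 0 allows in the control, the 13 counts were at least 7.30-fold higher, and the exact lower limit, which also takes in the counting error of the 13, was 5.14. It met the abundance rule only through the 5 min library. MiR-8066, which lies in an intron of PPP3CA (the catalytic subunit of the phosphatase calcineurin), rested on 1 control count, with 1, 7 and 8 counts and a ratio of 13.5 (1.81 to 598). The upper bounds of these ratios carry little meaning with so few control counts.

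MiR-5187-5p had 4, 12 and 17 counts, a ratio of 7.16 (2.34 to 29.3). It lies in TOMM40L, which encodes a relative of the mitochondrial import channel Tom40. MiR-6807-3p had 8, 12 and 25 counts and a ratio of 5.27 (2.30 to 13.5), and comes from TRIM28, a corepressor of transcription. MiR-1244, from the prothymosin alpha gene PTMA and its processed copies, had 8, 19 and 23 counts, a ratio of 4.84 (2.09 to 12.5). These 3 were ordered control, 3 min, 5 min from low to high, but at 3 min the interval lay above 1 for miR-1244 alone.

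MiR-6724-5p behaved otherwise, with 8, 4 and 22 counts. The 5 min library was 4.63 times the control (1.99 to 12.0) and 8.49 times the 3 min library (2.88 to 33.9). Its hairpin lies next to a ribosomal RNA gene, as given further on.

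The other 11 members with intervals above 1 had ratios between 2.53 and 6.18. MiR-2681-3p (3, 4 and 11 counts), from an intron of the growth factor gene FGF14, stood at 6.18 (1.63 to 34.5). MiR-8086 (5, 6 and 15) and miR-6817-3p (3, 4 and 9) were both at 5.05. MiR-1248 (4, 7 and 11) gave 4.63 and miR-5585-3p (6, 10 and 16) gave 4.49. These 5 had their highest level after 5 min.
MiR-6874-3p (4, 4 and 9) and miR-3908 (8, 10 and 18) were at 3.79, miR-3132 (7, 4 and 14) at 3.37 and miR-3976 (10, 8 and 19) at 3.20. At the lower end were miR-8065 (13, 11 and 20) at 2.59 and miR-1273g-3p (12, 10 and 18) at 2.53, which had near-equal counts in the other libraries.

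**Figure D3:**
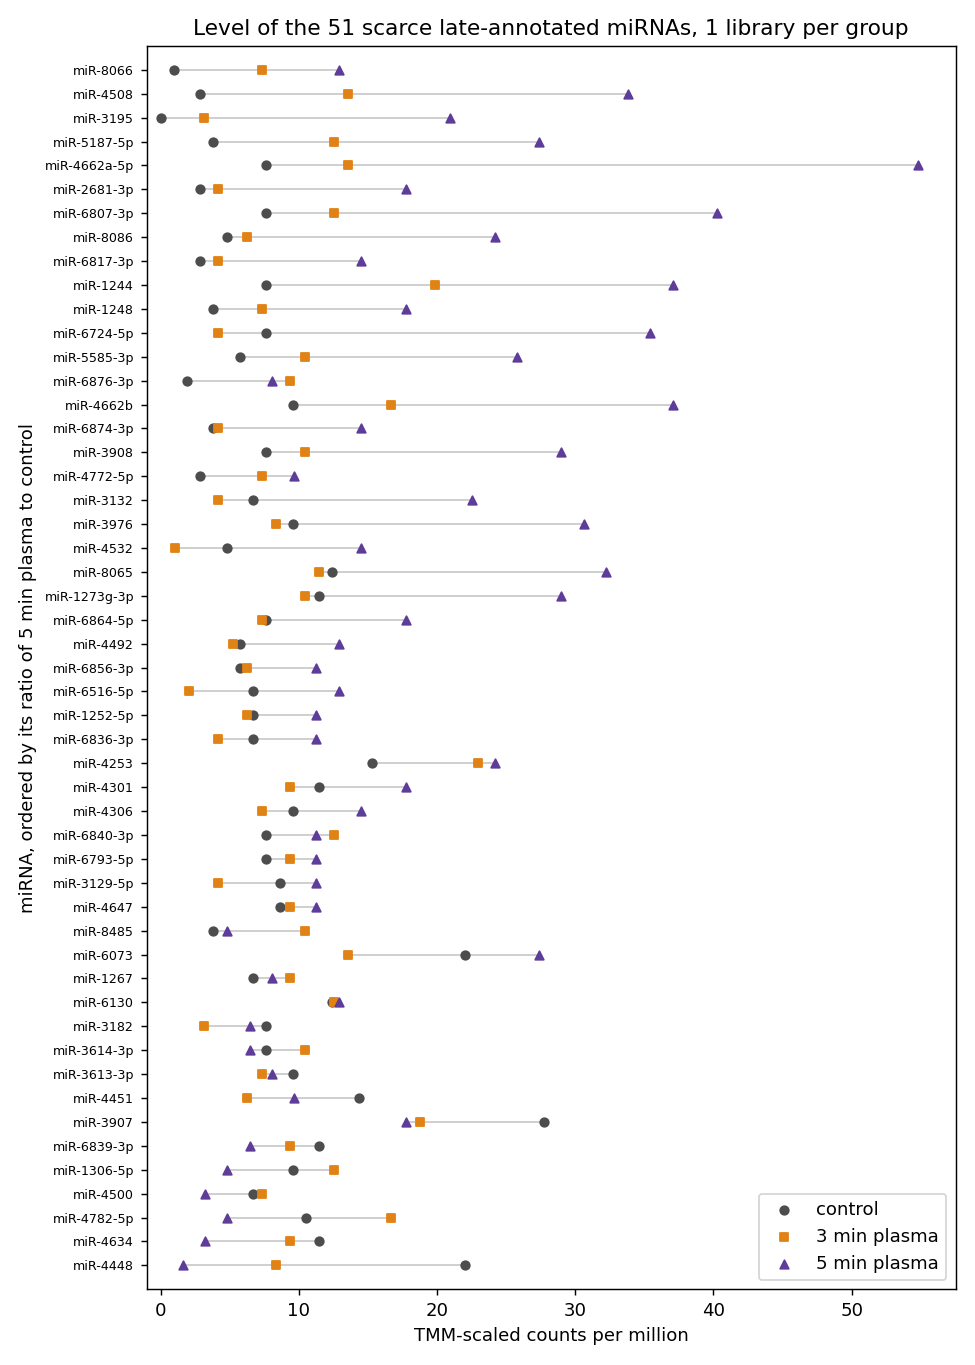
TMM-scaled CPM (x axis) of each of the 51 members (y axis, ordered by the 5 min to control ratio) in the control (circles), 3 min (squares) and 5 min (triangles) libraries, 1 library per group; grey lines join the lowest and highest value. The triangle lies farthest right for 36 members, and for miR-4448 the order is reversed.

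Of the members lower after 5 min, miR-4448 had the lowest ratio, with 23, 8 and 1 counts, and met the abundance rule only through the control. It had been the second most counted member of the control, level with miR-6073, and was the least counted after 5 min. The 5 min to control ratio was 0.0733 (0.00178 to 0.451), and the 3 min ratio 0.380 (0.147 to 0.879). In GENCODE 29 it lies in an intron of the pseudogene RPSAP31, at chr3:183886860-183886879 on the plus strand.

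The next lower members had intervals that held 1. MiR-4634 had 12, 9 and 2 counts (ratio 0.281, 0.0305 to 1.26), and miR-4782-5p, from an intron of the transporter gene SLC35F5, had 11, 16 and 3 (0.460, 0.0823 to 1.74). MiR-4500 had 7, 7 and 2 (0.481, 0.0488 to 2.53). These ratios rest on 2 or 3 counts in the 5 min library.
MiR-1306-5p (10, 12 and 3), miR-6839-3p (12, 9 and 4) and miR-3907 (29, 18 and 11) had ratios of 0.505, 0.562 and 0.639. MiR-3907, in an intron of the crystallin gene CRYGN, was the most counted member over the 3 libraries.

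Between the control and 3 min libraries the members differed little. Their 3 min sum was 1.10 times the control (0.965 to 1.26), an interval that holds 1, beside 1.01 (0.912 to 1.12) for the 66 other names. By the 2-fold rule 7 members were higher and 6 lower, where 5.16% and 4.01% of the 349 were. That is 13.7% and 11.8% of the members, above the background in both directions. Among the 66 of like abundance, 6 were higher and 6 lower. The median log2 ratio was 0.13 over the 50 members with a ratio, 0.13 over the 66 and 0.06 over the 349.

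An interval above 1 at 3 min was found for 3 members, and one below 1 for miR-4448, where 16.3% and 10.3% of the 349 had such intervals. MiR-4508 was 4.73 times the control (1.30 to 25.9) and miR-1244 2.59 times (1.08 to 6.84). MiR-6876-3p, which lost this call under 3 of the 5 other scalings (lower limits 0.966 to 0.993), had 2, 9 and 5 counts, with a 3 min ratio of 4.91 (1.02 to 46.7) and a 5 min ratio of 4.21 (0.690 to 44.2). Its scaled levels in the exposed libraries were thus similar, 9.39 and 8.05 CPM. MiR-6876-3p met the abundance rule only through the 3 min library, which favours a high 3 min ratio.

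Several members had wide 3 min intervals that held 1. On the higher side miR-8066 was at 7.64 (0.981 to 344), miR-5187-5p at 3.27 (0.992 to 13.9) and miR-8485 (4, 10 and 3 counts) at 2.73 (0.787 to 11.9). On the lower side were miR-4532 (5, 1 and 9 counts) at 0.218, miR-6516-5p (7, 2 and 8) at 0.312, miR-3182 (8, 3 and 4) at 0.409, miR-4451 (15, 6 and 6) at 0.437 and miR-3129-5p (9, 4 and 7) at 0.485. All of these ratios rest on at most 12 counts in the 3 min library. MiR-8066 and miR-8485 reached the abundance rule only with the 3 min library, and miR-3182 only with the control.

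**Figure D4:**
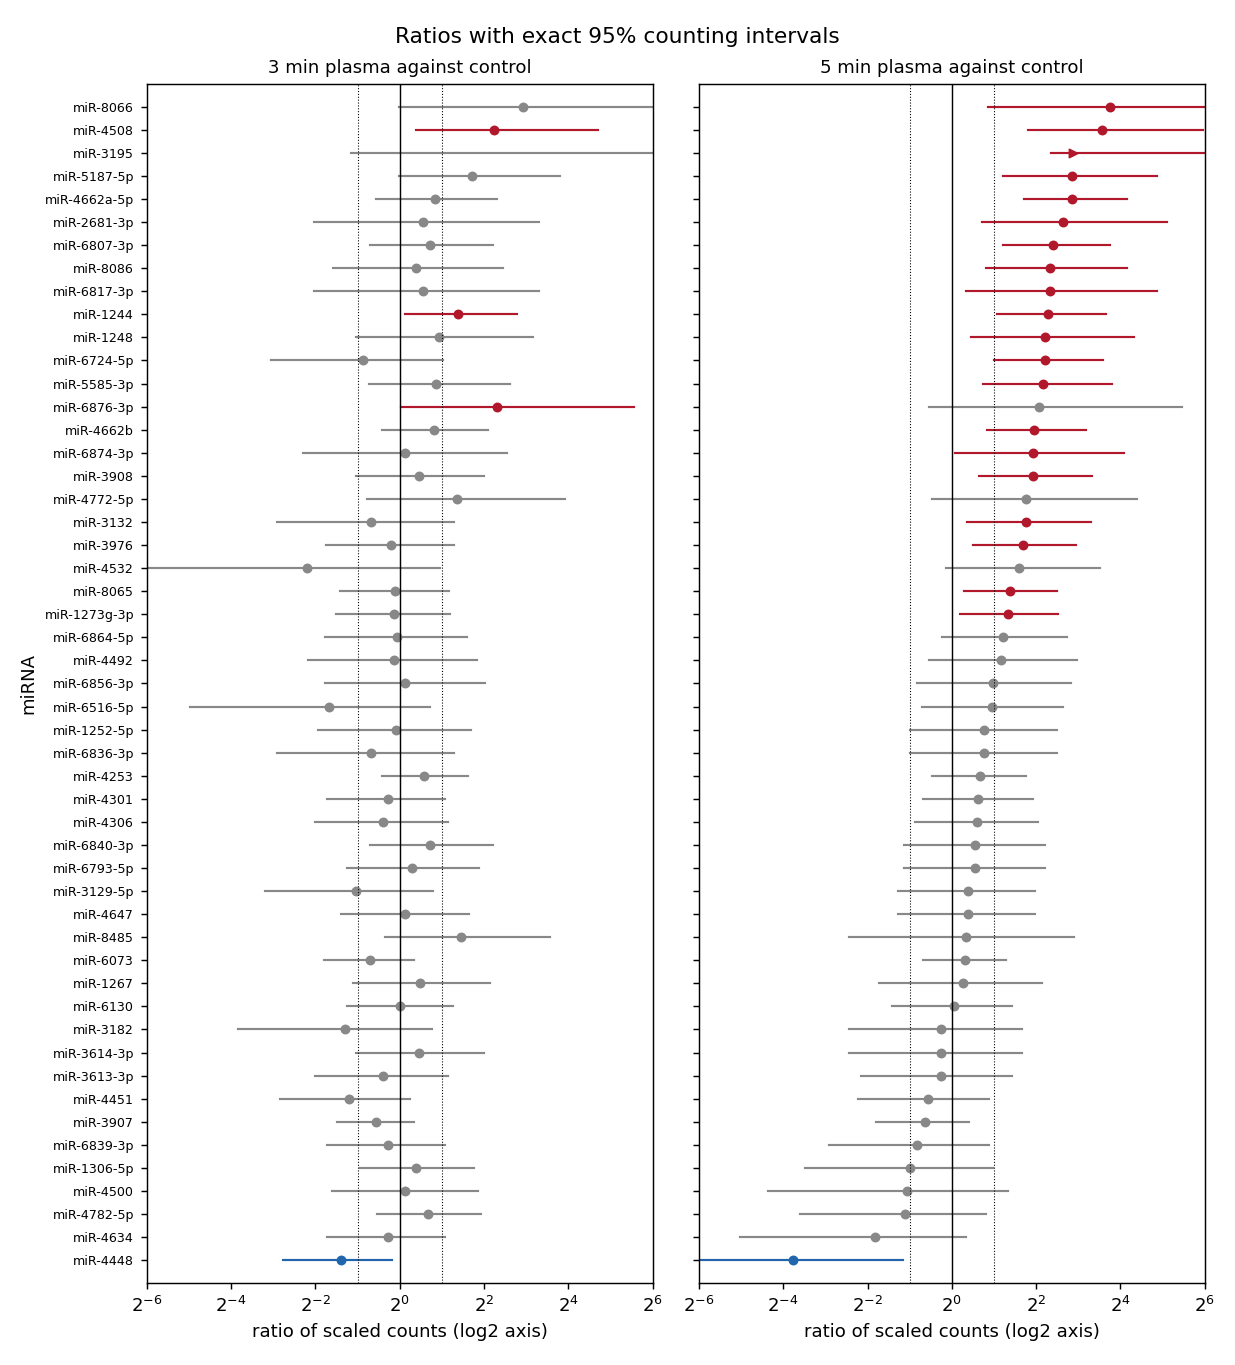
Ratio of scaled counts for each member at 3 min (left) and 5 min (right) against the same control library (x axis, log2), with exact 95% counting intervals cut at the plot edge; red and blue mark intervals above and below 1, dotted lines mark 2-fold, and the triangle for miR-3195 is a lower bound. At 5 min 20 intervals lie above 1 and 1 below; at 3 min 3 lie above and 1 below.

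The exposed libraries were also compared with each other. This comparison shares the 5 min library with the first one, so the values stand side by side and are not independent. The members' sum after 5 min was 1.93 times that after 3 min (1.70 to 2.19), and that of the 66 other names 1.25 times (1.12 to 1.39). Against the 3 min library, 26 members were at least 2-fold higher and 6 lower, where 16.9% and 4.87% of the 349 were. Intervals lay above 1 for 16 members and below 1 for none, beside 23.8% and 17.2% of the 349. Among the 66 these numbers were 8 and 3. With TMM or DESeq2 size factors over all listed miRNAs 15 lay above 1, miR-5585-3p having lost its call (lower limits 0.975 and 0.960). The members' median log2 ratio was 1.01, that of the 66 was 0.23 and that of the 349 was 0.08.

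MiR-4532 had the highest of these ratios, 13.9 (1.93 to 609), from 1 count after 3 min against 9 after 5 min, and 5 in the control. After it came miR-6724-5p at 8.49. MiR-3195 was at 6.69 (1.84 to 36.6) and miR-6516-5p at 6.18 (1.23 to 59.7). MiR-4532, miR-3195 and miR-6516-5p met the abundance rule only through the 5 min library, so they had to be high there. MiR-3132 was at 5.40 (1.70 to 22.5). MiR-4662a-5p, at 4.04 (2.08 to 8.34), had the most counts in the 5 min library. Of those lower after 5 min, miR-4782-5p came nearest to leaving out 1, at 0.290 (0.0541 to 1.01).

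Over the 3 libraries, 36 members had their highest scaled level after 5 min, 8 after 3 min and 7 in the control. For the 66 other names these numbers were 28, 18 and 20. A steady order from control through 3 min to 5 min was upward for 21 members and downward for 4, and for the 66 it was 17 and 12. Of the 51 members, 24 had an interval that left out 1 in some comparison and 27 in none.

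The abundance rule kept each member's mean below 20 counts, which limits how much of the sum a few can hold. The 5 most counted members of each library held 24.1%, 20.4% and 22.9% of its member counts. These shares describe each library and not the difference between libraries. Single members ranged from 0 to 29 counts in the control (median 8), from 1 to 22 after 3 min (median 9) and from 1 to 34 after 5 min (median 9). In scaled CPM the medians were 7.65, 9.39 and 14.5. At 3 counts or fewer were 7, 4 and 6 members.

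Some members were nearly level. MiR-6130 (13, 12 and 8 counts) had scaled levels of 12.4, 12.5 and 12.9 CPM. MiR-3613-3p (10, 7 and 5), from the DLEU2 transcript, miR-4647 (9, 9 and 7), miR-1267 (7, 9 and 5) and miR-6793-5p (8, 9 and 7) followed. Their 5 min to control ratios lay between 0.842 and 1.47, but with intervals such as 0.373 to 2.70 for miR-6130, which do not show equal levels.

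The positions of the hairpins (GRCh38) set off several kinds of members. The hairpins of 6 ended at the last base of an intron, the position of a mirtron or of a tailed mirtron, in which splicing makes an end of the hairpin. This was 16.2% of the members' 37 annotated hairpins, 19.6% of 987 late-numbered hairpins and 0.418% of 478 others, so it is a trait of late-numbered miRNAs in general. One of them, miR-6807, filled its whole 92-base intron of TRIM28 (chr19:58550285-58550376, plus strand). The other hosts were DNM2 (the endocytic GTPase dynamin) for miR-6793, SNX8 for miR-6836, FUBP3 for miR-6856, RNF216 for miR-6874 and the pseudogene CRYBB2P1 for miR-6817. Of these members 5 are 3p arms, and for 4 of them the mature miRNA itself ended at the intron's last base, with the letters ag that close most introns, as in miR-6807-3p above.

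Together these 6 had 36, 39 and 64 counts. The 5 min sum was 3.00 times the control (1.96 to 4.64) and the 3 min sum 1.18 times (0.732 to 1.91). MiR-6807-3p, miR-6817-3p and miR-6874-3p were at least 2-fold higher after 5 min. MiR-6817-3p and miR-6874-3p met the abundance rule only through the 5 min library, which favours a high 5 min sum of these 6. MiR-6856-3p (6, 6 and 7 counts, 1.97), miR-6836-3p (7, 4 and 7, 1.68) and miR-6793-5p (1.47) were within 2-fold.

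On the same strand, 10 members overlapped an exon of another gene, and summed to 88, 100 and 104 counts, a 5 min ratio of 1.99 (1.48 to 2.68). Reads of the host's own RNA and of the miRNA cannot be told apart there. MiR-1244 lay in an exon of PTMA (hairpin at chr2:231713314-231713398, plus strand) and had copies on chromosomes 5 and 12 whose reads could not be told apart. MiR-1306-5p lay in exons of DGCR8, the partner of Drosha in cutting hairpins, and had a 5 min ratio of 0.505 with an interval that held 1 (0.0894 to 1.96). MiR-3614-3p (8, 10 and 4), on an exon of TRIM25, and miR-4647, on SLC35B2, were within 2-fold, as were miR-6840-3p (8, 12 and 7), on PILRB, and miR-6073, on SOX6. Without the 12 members on an exon of either strand or on a small RNA gene, the sum over the remaining members was 2.19 times the control.

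The members inside longer stable RNAs were the 2 shown in capitals throughout, miR-1248 and miR-6516-5p. They summed to 11, 9 and 19 counts, 2.91 times the control after 5 min (1.32 to 6.77). MiR-1248 lies in SNORA81, in the gene of the translation initiation helicase EIF4A2 (chr3:186786672-186786777, plus strand). MiR-6516-5p, which met the abundance rule only through the 5 min library, lies in SCARNA16 (chr17:77089417-77089497, plus strand). The members with Y RNA stretches, miR-4301 (12, 9 and 11 counts) and miR-6073, had 5 min ratios of 1.54 and 1.25, with intervals that held 1.

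MiR-6724-5p and miR-3908 had no GENCODE gene at their site on either strand. The hairpin of miR-6724 at chr21:8432530-8432621 (plus strand) was 601 bases from RNA45SN1, a ribosomal RNA precursor gene, and 91.3% of the mature letters were G or C. The 27 members inside introns with no exon overlap summed to 255, 218 and 237 counts, with a 5 min ratio of 1.57 (1.31 to 1.88). Of the 27, 10 were at least 2-fold higher and 4 lower, beside 18.3% and 6.59% of the 349 and 25 and 4 of all 51 members. The 9 members without a RefSeq entry had the highest class sum ratio at 5 min, with 52, 82 and 137 counts and 4.44 times the control (3.20 to 6.23). Of these 9, 8 were at least 2-fold higher, beside 49.0% of all members and 18.3% of the 349. MiR-3195 and miR-4532, both among the 8, met the abundance rule only through the 5 min library, which favours a high 5 min sum. The ratio of miR-3195 is a bound against the floor of 3 counts.

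For 23 members the other arm of the hairpin was listed too, with fewer counts than the member in all cases but miR-6516 and miR-6874 at 3 min, where both arms were equal (2 and 2, 4 and 4 counts). The members were chosen for a mean of at least 5 counts, and the other arms were not. The 23 members summed to 164, 189 and 230 counts, and their other arms to 9, 9 and 11. No other arm was itself a member. The ratios of the 5 min to the control sum were 2.36 (1.93 to 2.91) for the members and 2.06 (0.776 to 5.62) for the other arms, the latter with an interval that holds 1.

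Among the 42 members with a sequence, none shared a seed with another of them, and 11 shared one with some listed miRNA. The seeds of the remaining members were not compared. MiR-4500 carried the let-7 seed GAGGUAG, found in 10 other listed miRNAs that held 270402 control counts. It had 7, 7 and 2 counts, while let-7i-5p had 111578, 97520 and 58432 and a 5 min ratio of 0.882 (0.874 to 0.891). MiR-4306 had 10, 7 and 9 counts and a 5 min ratio of 1.52 (0.545 to 4.15), and miR-185-5p, with the same first 16 letters, had 204, 204 and 159 and a ratio of 1.31 (1.06 to 1.62). MiR-3129-5p, from an intron of the collagen gene COL5A2, shared the seed CAGUAGU with miR-199a-3p and miR-199b-3p, and had 9, 4 and 7 counts against 4098, 4729 and 3392 for miR-199a-3p. In all 3 cases the abundant miRNA dwarfed the member, and the intervals of the members were too wide to set the ratios apart.

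In length and composition the members with a sequence held more short ones. The 9 members without a sequence, whose summed 5 min ratio was 4.44, could not be placed in these classes. Of the 42 with a sequence, 9 (21.4%) were shorter than 20 letters, beside 1.67% of the earlier-named miRNAs of like abundance and 9.12% of all listed. These 9 summed to 90, 75 and 63 counts, and their 5 min ratio of 1.18 (0.841 to 1.65) had an interval that held 1. The median length was 22 letters (range 17 to 27), and the median share of G and C 47.2%, beside 50.0% and 52.2% in the other sets. At least 70% of the letters were G or C in 4 of the 42 members. Of these, miR-6724-5p and miR-4492 (6, 5 and 8 counts) were at least 2-fold higher after 5 min, miR-6836-3p was within 2-fold and miR-4634 was lower.

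The entries left out by name did not move alike. Together the 7 summed to 306, 181 and 134 counts, 0.738 times the control after 5 min (0.598 to 0.907). MiR-1260a, miR-1260b and miR-4454, which resemble transfer RNA, accounted for 242, 146 and 78 of these. MiR-4485-3p, with 0, 1 and 17 counts, was higher after 5 min, miR-6765-3p had 64, 34 and 39 counts, and miR-3648 and miR-3687 had none.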

How the data were processed

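The deposited files hold raw read counts per mature miRNA, whole numbers for 2588 human miRNAs in 1 library each of control, 3 min and 5 min cells. The submitters' processing notes name edgeR, Bowtie2 and bedtools without versions. Build, annotation, trimming, strand use and the handling of multiply matching reads are not given in the labels used here, so near-identical miRNAs may share reads. Groups were taken from the labels. Scaling used TMM (edgeR 4.0.16, R 4.3.3) over miRNAs whose mean count reached 20, with DESeq2 1.42.0 size factors as an alternative. Ratios of scaled counts carry exact (Clopper-Pearson) 95% intervals and sums exact Poisson ones, a 0 was set to 3 counts for bounds, and a member was called when 2-fold apart. The ratio step was tested on simulated data. RefSeq (GRCh38.p14) gave sequences, and GENCODE 29 gave gene overlaps.

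The members and lists were chosen with earlier results of these data known. Members were named by a rule: in each comparison up to 8 higher and 8 lower with intervals farthest from 1 and at least 1.5-fold apart, the most counted, those at the bounds or at 0, those with a listed other arm, a seed shared with another member or with a top 20 miRNA, or a hairpin at an exon, intron end or small RNA, and the 5 most even. MiR-8065, miR-3908, miR-4301 and miR-4306 were named after their values were seen.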

Additional observations from a re-analysis of the deposited data

How the results depend on the processing

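No paired analysis was possible because each group had 1 library, so no library could be left out either. Over 5 other scalings, a higher and no lower abundance bound, and without the most counted member or those on exons, the 5 min to control sum stayed between 1.84 and 2.41. The lowest value, 1.84, came from DESeq2 size factors over all listed miRNAs. With DESeq2 size factors or TMM over all listed miRNAs, 1 member in place of 0 had an interval below 1 for 5 min against 3 min, and 18 and 19 in place of 20 had one above 1 for 5 min against control. Choice by the 3 min library alone, added after seeing the data, gave 2.14. The first of these scalings also changed the calls among the 349 miRNAs at 5 min from 64 higher and 23 lower to 58 and 36.

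Counts of members called moved with the threshold by construction. The counts given here at 1.5-fold and at a mean of at least 10 have no background share, so they describe the members only. At 1.5-fold, 15 were higher and 10 lower after 3 min, and 7 were lower after 5 min than in the control. Of the 19 members with a mean of at least 10 counts, 3 were 2-fold higher and 1 lower after 3 min, 12 higher and 2 lower after 5 min, and 12 higher and 2 lower at 5 min against 3 min. Of the other 88 values, sums stayed within their counting interval and counts of members within 1.5 times, that bound included, and none of 760 single-member values moved beyond its counting interval. Of the 51 members, 27 had intervals that held 1 in each comparison, which does not show equal levels. At this depth some ratios past 2-fold had such intervals. Examples at 5 min against control were miR-4492 (2.25, 0.684 to 7.86) and miR-4634 (0.281, 0.0305 to 1.26).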
